A study of Homo sapiens with 12 samples.

Results

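A set of 32 messenger RNAs that encode proteins of the small ribosomal subunit was followed in human HEK293T Flp-In cells exposed to girolline. One transcript was taken for each of RPSA, RPS2 to RPS29 and FAU, by its Ensembl transcript ID in the monosome tables (for example ENST00000230050.4 for RPS12, ENST00000343986.9 for RPS21, ENST00000380394.9 for RPS6, ENST00000648437.1 for RPS10 and ENST00000646449.2 for RPS26), and all 32 were found there among 100283 transcripts with a coding length. The RNA-seq and disome tables carry UCSC IDs for 93916 such transcripts, so each member was matched to a row of the same coding length at the same place in the row order. An alignment of the lengths of all rows matched 24 members, and the other 8 (RPS2, RPS3, RPS3A, RPS9, RPS16, RPS18 and RPS23 among them) were matched to a row of their own length at most 7 rows from their expected place. For RPS10, RPS19 and RPS26 the alignment allowed more than 1 row. RPS3 and RPS9, both matched to a nearby row, each had 3 rows of their length in the window searched, and a nearest one was taken. The members lie on 17 chromosomes, and on all 7 that hold several of them the order of the rows followed the RefSeq gene starts. Their coding lengths ran from 57 codons (RPS29) to 296 codons (RPSA).

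HEK293T is a line of human embryonic kidney origin, and Flp-In denotes an integrated recombination site. The wild-type line was exposed for 2 h to the solvent DMSO or to girolline at 1 or 10 µM. Girolline is a marine sponge compound known to interfere with protein synthesis. RNA-seq of total RNA, as the labels name the molecule, measured transcript level, monosome footprints measured RNA protected by single ribosomes, and disome footprints measured RNA protected by a pair of abutting ribosomes. All 3 kinds were made with DMSO in duplicate and once at either dose, 12 libraries in all. Nothing in the labels states that the duplicates were separate cultures, and the spread that the tests measure may then be technical. With 1 residual degree of freedom in each kind, a dose without a duplicate is assumed to spread as the DMSO pair did.

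The small subunit binds messenger RNA and holds the decoding site, while the large subunit joins amino acids. The proteins of the 32 members are grouped here by where they sit, with 14 in the head and 18 in the body and platform. FAU and RPS27A encode fusions, in which a ubiquitin-like protein and ubiquitin precede the ribosomal protein and are cut off. Transcripts of ribosomal proteins are known to begin with a C and an unbroken run of pyrimidines, the terminal oligopyrimidine tract, through which their translation follows growth signals. A disome forms when a trailing ribosome runs into one that has slowed or stopped, and the cell marks such collided ribosomes with ubiquitin on proteins of the small subunit that include RPS2, RPS3, RPS10 and RPS20.

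RefSeq start-site sequences (GRCh38.p14) were held for 25 of the 32 members, and RPS2, RPS15A and RPS20 were among those without an entry. At an annotated start on the transcript strand, 19 of the 25 had a C followed by at least 4 bases that are each C or T, against 4.07% of all 35116 start-site entries. The 6 without it were RPS4X, RPS7, RPS15, RPS26, RPS28 and RPS29. A match here describes the letters at an annotated start and says nothing of what binds there. The windows below run 5′ to 3′ from 10 bases before the annotated start through the first 20 transcribed bases, and the capitals mark the unbroken run of C and T that begins at the start. The first 6 belong to members whose disome footprints rose most with girolline.
RPS12: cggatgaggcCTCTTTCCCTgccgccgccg
RPS21: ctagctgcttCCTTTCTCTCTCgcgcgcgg
RPS6: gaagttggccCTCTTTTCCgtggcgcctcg
RPS16: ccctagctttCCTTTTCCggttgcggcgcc
RPS3A: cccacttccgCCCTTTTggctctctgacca
FAU: tcgcttcttcCTCTTTCTCgactccatctt
The next 5 also begin with such a tract but belong to members whose disome footprints did not pass the test for a rise at 10 µM, RPS25 among them with a fall.
RPS3: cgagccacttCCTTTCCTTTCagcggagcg
RPS9: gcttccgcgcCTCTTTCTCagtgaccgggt
RPS10: catgctccttCCTTTCCagccccggtaccg
RPS13: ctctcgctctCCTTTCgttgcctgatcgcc
RPS25: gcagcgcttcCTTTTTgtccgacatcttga
The last 4 lack the tract at the annotated start, and include RPS7, with a rise in disome footprints, and RPS26, with a fall. On RPS15 and RPS26 a run of C and T begins a few bases after that start.
RPS7: cgccctcctcCTCgcgctgtttccgcctct
RPS15: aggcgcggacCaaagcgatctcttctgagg
RPS26: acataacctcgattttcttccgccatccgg
RPS29: agcgcgcagcTggcagcggtggttgtttct
In GRCh38.p14 and by strand, these windows lie at RPS12 chr6:132814559-132814588 (plus), RPS21 chr20:62387093-62387122 (plus), RPS6 chr9:19380217-19380246 (minus), RPS16 chr19:39435930-39435959 (minus), RPS3A chr4:151099618-151099647 (plus), FAU chr11:65122115-65122144 (minus), RPS3 chr11:75399508-75399537 (plus), RPS9 chr19:54200848-54200877 (plus), RPS10 chr6:34426050-34426079 (minus), RPS13 chr11:17077648-17077677 (minus), RPS25 chr11:119018324-119018353 (minus), RPS7 chr2:3575250-3575279 (plus), RPS15 chr19:1438386-1438415 (plus), RPS26 chr12:56041908-56041937 (plus) and RPS29 chr14:49598691-49598720 (minus). Each covers the start of the gene's first exon and the bases just upstream.

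The smallest and largest library totals were 28424272 and 42194871 counts for RNA-seq, 21570489 and 38074691 for monosomes, and 3091715 and 5769026 for disomes. Many rows hold the same counts in every library as another row, and these were merged before testing. Levels are given as CPM, the count scaled to a library total of 1000000 after trimmed-mean (TMM) scaling, which sets each library against its own other transcripts and hides a change shared by all. The median distance between the DMSO libraries over the members was 0.13 for RNA-seq, 0.06 for monosomes and 0.17 for disomes on the log2 scale, and the largest was 0.85, for disome footprints on RPS20. The files give no names for other genes, so markers of the cell line and other transcripts with the tract were not analysed here. How reads that match near-identical copies were counted is not given in the sources used here. Ribosomal protein genes have many processed pseudogenes, RPS27A shares its ubiquitin part with other ubiquitin genes, and RPS4X has a close copy on the Y chromosome, so members' counts may include or lack reads of such copies.

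In DMSO the members were among the most abundant transcripts. Per 100 counted codons, RNA-seq levels ran from 116 CPM (FAU) to 710 CPM (RPS19), a head protein altered in Diamond-Blackfan anaemia, and the lowest of the 32 was above 98.98% of the tested rows. Monosome levels per 100 codons ran from 21.4 CPM (RPS26), above 93.48% of rows, to 641 CPM (RPS19). Disome levels per 100 codons covered a wider range, from 7.69 CPM (RPS12), above 80.88% of rows, to 819 CPM (RPS10). By the mean of the DMSO pair RPS19 was highest in both RNA-seq and monosome libraries, while the ends of the disome range were held by other members.

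The share of all merged counts that fell on the members moved in opposite directions in RNA-seq and in footprints. With DMSO the RNA-seq share was 1.64% and 1.68%, against 1.56% at the lower dose and 1.35% at the higher. The monosome share was 1.26% and 1.25% with DMSO, then 1.5% at the lower and 1.66% at the higher dose. The disome share was 1.05% and 1.01% with DMSO, then 1.38% at the lower and 1.799% at the higher dose. At both doses the RNA-seq share was below both DMSO libraries and each footprint share above them, with the value at 10 µM farther from DMSO than that at 1 µM.

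**Figure D1:**
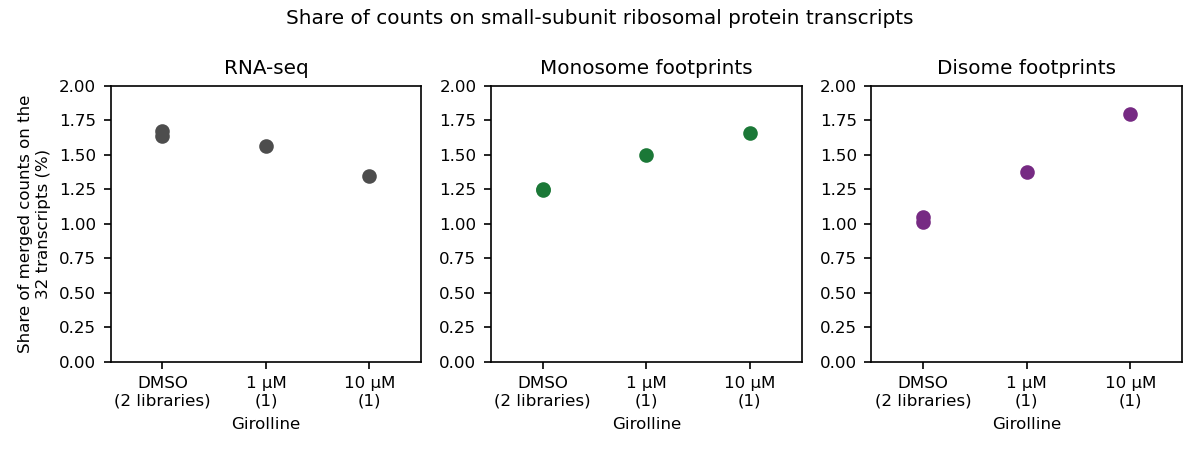
Share of merged counts (%, vertical axis) on the 32 small-subunit ribosomal protein transcripts in each library, by girolline dose and kind of library; each point is 1 library. The RNA-seq share at 10 µM (1.35%) sits below both DMSO libraries, and the disome share (1.799%) above them.

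RNA-seq levels of 8 members fell at 10 µM and none rose (edgeR quasi-likelihood test, Benjamini-Hochberg adjusted over all tested rows at an FDR of 0.05). Over all 56229 tested rows 1.11% were called, 0.537% as higher and 0.571% as lower. The median log2 fold change was -0.41 over the members, against -0.01 over all tested rows and -0.09 over rows within the members' range of coding lengths. The 8 were RPS10, RPS12, RPS13, RPS18, RPS21, RPS27A, RPS28 and RPS29. Among rows of a mean of at least 10 CPM, fitted alone, 1.73% were called higher and 2.21% lower, and 14 members lower. In bulk libraries such as these, fewer cells that express a transcript and less of it per cell cannot be told apart.

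Of the 4 members under 100 codons, RPS21, RPS28 and RPS29 fell in RNA-seq, and RPS27 was not called (-0.33 ± 0.16). RPS29, a zinc-binding protein of the head, was at 48.9 and 57.2 CPM with DMSO, 51.7 CPM at 1 µM and 23.8 CPM at 10 µM. RPS28, a head protein near the exit of the messenger RNA channel, was at 59.5 and 60.8 CPM with DMSO, 52.8 CPM at 1 µM and 30.6 CPM at 10 µM. For both, the library at 10 µM was below both DMSO libraries and the library at 1 µM within or just under their range. RPS29 fell by a log2 fold change of -1.16 ± 0.20 (SE; edgeR adjusted p = 8.36e-06) and RPS28 by -0.98 ± 0.20 (edgeR adjusted p = 0.000326). Since RNA-seq counts leave out 20 codons, RPS29 was counted over 37 codons and RPS28 over 50. Across the 32 members, coding length and the RNA-seq log2 fold change had a Spearman rho of 0.31, a description over members that share the same 4 libraries.

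RPS21, a small protein of the body, was at 122 and 112 CPM with DMSO, 105 CPM at 1 µM and 68.9 CPM at 10 µM. RPS12, a head protein, was at 301 and 317 CPM with DMSO, 316 CPM at 1 µM and 190.4 CPM at 10 µM. Both were lowest at 10 µM, RPS21 with a log2 fold change of -0.77 ± 0.18 and RPS12 with -0.70 ± 0.17. At the other end, RPS16, a head protein whose tail reaches towards the transfer RNA, was at 567 and 468 CPM with DMSO, 533 CPM at 1 µM and 523 CPM at 10 µM, and its log2 fold change was 0.01 ± 0.15. RPS24, a body protein, was at 455 and 499.7 CPM with DMSO, 391 CPM at 1 µM and 478 CPM at 10 µM, with a log2 fold change of 0.00 ± 0.16. RPS2 and RPS3, which line the channel where messenger RNA enters, had log2 fold changes of -0.04 ± 0.14 and -0.06 ± 0.16. RPS2 was at 1822 and 1603 CPM with DMSO, 1511 CPM at 1 µM and 1671 CPM at 10 µM, and RPS3 at 521 and 475 CPM with DMSO, 439 CPM at 1 µM and 479.5 CPM at 10 µM. None of these 4 passed the test, and at 10 µM each lay within the range of its DMSO libraries.

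The RNA-seq level of RPS10 was 614 and 604 CPM with DMSO, 528 CPM at 1 µM and 416 CPM at 10 µM, and it fell at 10 µM by a log2 fold change of -0.55 ± 0.16 (edgeR adjusted p = 0.0444; DESeq2 0.0851). RPS20 was at 193 and 224 CPM with DMSO, 183 CPM at 1 µM and 158 CPM at 10 µM. RPS23 was at 423 and 439 CPM with DMSO, 376 CPM at 1 µM and 325 CPM at 10 µM. RPS10 stood below both DMSO libraries at both doses, and RPS20 and RPS23 were not called, with log2 fold changes at 10 µM of -0.40 ± 0.17 and -0.41 ± 0.16. RPS6 was at 794 and 861 CPM with DMSO, 704 CPM at 1 µM and 603 CPM at 10 µM, with -0.46 ± 0.15, and RPS26 at 140.3 and 165 CPM with DMSO, 144 CPM at 1 µM and 142 CPM at 10 µM, with -0.10 ± 0.17. Neither passed the test. The remaining called members were RPS13 (-0.69 ± 0.17), RPS18 (-0.65 ± 0.15) and the ubiquitin fusion RPS27A (-0.62 ± 0.16), while the other fusion, FAU, was not called (-0.48 ± 0.18).

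At 1 µM no member was called in RNA-seq, and neither was any tested row (0.0% by edgeR, 557 rows at an unadjusted p under 0.05, and 0 members by DESeq2). The members' median log2 fold change was -0.13. The lowest values included those of RPS24 (-0.29 ± 0.16), RPS6 (-0.23 ± 0.15) and RPS10 (-0.21 ± 0.15), and the highest those of RPS16 (0.04 ± 0.15), RPS12 (0.03 ± 0.16) and RPSA (-0.02 ± 0.15). RPSA was at 716 and 752 CPM with DMSO, 725 CPM at 1 µM and 561 CPM at 10 µM. At 1 µM RPSA lay between its DMSO libraries. Between the doses, RPS12 and RPS29 were lower at 10 µM than at 1 µM, where 0.427% of tested rows were called, 0.219% as higher and 0.208% as lower. RPS29 had a log2 difference of -1.12 ± 0.23 and RPS12 of -0.73 ± 0.19, the latter lost by DESeq2 (adjusted p = 0.0583). The count at 10 µM rested on settings. With both doses pooled as 1 group it was 0, in a fit that called 0.00366% of all tested rows. With only rows of at least 10 CPM it was 14, all lower.

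Monosome footprints rose on 26 members at 10 µM and fell on 2, RPS15 and RPS26. Of all 55409 tested rows 32.3% were called, 16.6% as higher and 15.7% as lower, and among rows of the members' length range 17.7% were higher and 12.4% lower. The members' median log2 fold change was 0.40, against 0.01 over all tested rows. Among rows of a mean of at least 10 CPM, fitted alone, 26.7% were called higher and 25.4% lower, and 27 members higher and 1 lower. At 1 µM, where 1.78% of tested rows were called, 1.05% as higher and 0.729% as lower, 25 members rose and none fell, with a median log2 fold change of 0.26. Among rows of a mean of at least 10 CPM, 4.3% were called higher and 2.85% lower at 1 µM, and 26 members higher. The rise was present in 12 of 14 head members and 14 of 18 body and platform members at 10 µM.

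RPS27, a zinc-binding platform protein, was at 138 and 152 CPM with DMSO, 219 CPM at 1 µM and 275 CPM at 10 µM in monosome libraries. RPS20, a head protein, was at 140.2 and 122 CPM with DMSO, 191 CPM at 1 µM and 226 CPM at 10 µM. RPS6, the body protein phosphorylated by kinases that act below mTOR, was at 413 and 396 CPM with DMSO, 545 CPM at 1 µM and 682 CPM at 10 µM. In all 3 both doses were above both DMSO libraries and 10 µM was above 1 µM. Their log2 fold changes at 10 µM were 0.92 ± 0.06 for RPS27, 0.78 ± 0.06 for RPS20 and 0.75 ± 0.05 for RPS6 (edgeR adjusted p = 1.2e-26, 6.93e-21 and 7.07e-24). RPSA, which was also described as a laminin receptor, was at 123 and 125 CPM with DMSO, 157 CPM at 1 µM and 199 CPM at 10 µM and rose by 0.68 ± 0.06. RPS29 was at 122 and 113 CPM with DMSO, 170.2 CPM at 1 µM and 185 CPM at 10 µM, and was with RPS27, RPS20 and RPS6 among the 4 highest log2 fold changes at 1 µM (0.53 ± 0.07 for RPS29 and 0.59 ± 0.06 for RPS27).

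RPS12 was at 100.2 and 97.7 CPM with DMSO, 124 CPM at 1 µM and 156 CPM at 10 µM in monosome libraries and rose by 0.65 ± 0.06 at 10 µM. RPS10 was at 431 and 425 CPM with DMSO, 507 CPM at 1 µM and 502 CPM at 10 µM and rose by 0.23 ± 0.06. RPS23, a protein of the decoding site, was at 462 and 453 CPM with DMSO, 552 CPM at 1 µM and 606 CPM at 10 µM and rose by 0.41 ± 0.05. These 3 were above both DMSO libraries at both doses, and RPS10 was no higher at 10 µM than at 1 µM. RPS2 was at 230 and 249 CPM with DMSO, 280.5 CPM at 1 µM and 337 CPM at 10 µM and rose by 0.49 ± 0.06, and RPS3 was at 481 and 506 CPM with DMSO, 581 CPM at 1 µM and 572 CPM at 10 µM and rose by 0.21 ± 0.05. Transcripts of RPS2, RPS3, RPS10 and RPS20, whose proteins are ubiquitinated at collided ribosomes, were each called higher in monosome footprints at 10 µM. They are among the 26 of all 32 members called higher. RPS3 and RPS10 lost the call in a fit joined with RNA-seq and without either DMSO monosome library, RPS3 also by DESeq2. RPS2 lost it without the first of these libraries.

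RPS26, a protein at the exit of the messenger RNA channel, had the fewest monosome footprints of all members, at 25.3 and 20.2 CPM with DMSO, 20.7 CPM at 1 µM and 13.3 CPM at 10 µM. Its fall at 10 µM had a log2 fold change of -0.76 ± 0.11 (edgeR adjusted p = 2.37e-09). RPS15, a head protein near the decoding site, was at 862 and 842 CPM with DMSO, 879 CPM at 1 µM and 759 CPM at 10 µM, a fall of a log2 fold change of -0.17 ± 0.05 at 10 µM. FAU was at 191 and 187 CPM with DMSO, 201 CPM at 1 µM and 188 CPM at 10 µM, with the values at 10 µM between those of the DMSO pair.

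Comparing the doses directly, 12 members had more monosome footprints at 10 µM than at 1 µM and 3 had fewer, RPS15 and RPS26 among them, where 12.1% of tested rows were called, 5.79% as higher and 6.34% as lower. The highest differences were those of RPSA (0.34 ± 0.07), RPS27 (0.33 ± 0.07), RPS12 (0.33 ± 0.08) and RPS6 (0.33 ± 0.06). DESeq2 called 4 members here. The monosome calls depended on the fit. With a DMSO library left out, 3 libraries of a kind in 3 groups leave no spread to test against, so such values for a single kind come from a fit joined with another kind. Joined with RNA-seq and with no library left out, 21 members were called at 10 µM and 0 at 1 µM, where 12.7% and 0.0232% of tested rows were called. Without either DMSO monosome library, fewer members and a smaller share of all tested rows were called at 10 µM in that fit. The members' median log2 fold change was 0.40 at 10 µM and 0.26 at 1 µM without the first. Without the second the medians were 0.38 and 0.24. RPS6, RPS12, RPS18, RPS20, RPS27 and RPSA kept their call at 10 µM in each setting tried other than the pooling of both doses. Pooling left 0 members and 0.0% of all tested rows called. The calls of the 2 that fell were less firm. RPS15 lost its call by DESeq2 (adjusted p = 0.0917), in the joint fit (0.246) and without either DMSO library, and RPS26 lost it without the first (0.0933).

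**Figure D2:**
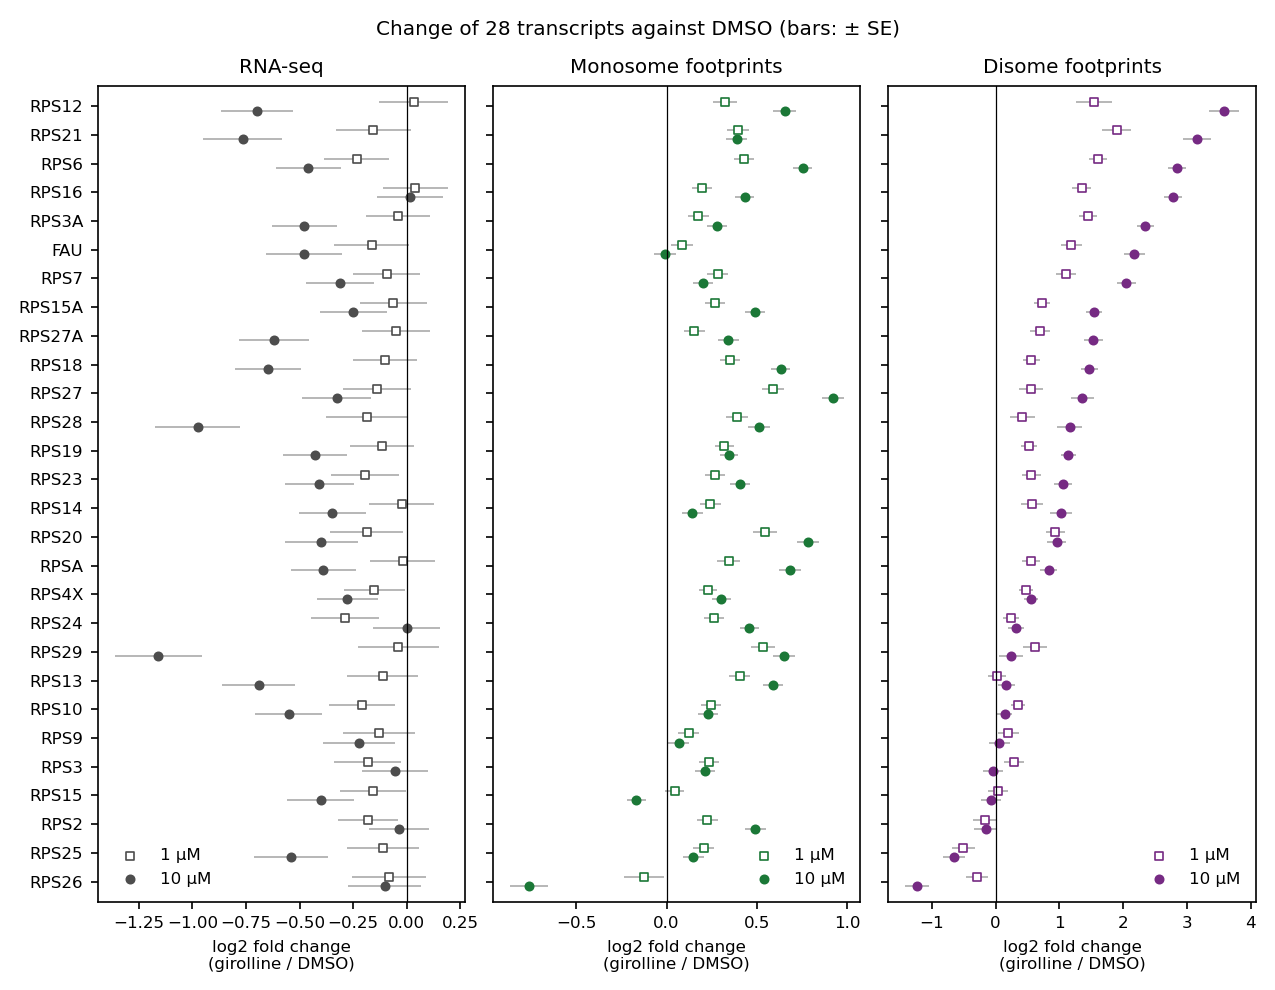
Log2 fold change against DMSO (horizontal axes, edgeR, ± SE, a different scale in each panel) of 28 members in RNA-seq, monosome and disome libraries at 1 µM (open squares) and 10 µM (filled circles), ordered by the disome change at 10 µM. RNA-seq values lie mostly below 0 and monosome values mostly above, and disome values run from -1.23 (RPS26) to 3.58 (RPS12).

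Disome footprints rose on 21 members at 10 µM and fell on 3, RPS25 and RPS26 among them. Of all 34606 tested rows 35.7% were called, 20.8% as higher and 14.9% as lower, and among rows of the members' length range 30.2% were higher and 9.56% lower. The median log2 fold change was 1.04 over the members, -0.02 over all tested rows and 0.33 over rows of the members' length range. At 1 µM, where 7.07% of tested rows were called, 5.39% as higher and 1.68% as lower, 21 members rose, none fell, and the median was 0.55. Among rows of a mean of at least 10 CPM, 9.98% were called higher and 3.18% lower at 1 µM, and 20 members higher and 1 lower. The size of the change varied far more among members than in monosome libraries, from a 12.0-fold rise to a fall. By place, 8 of 14 head members and 13 of 18 body and platform members rose at 10 µM.

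RPS12 had 28 disome footprints in the first DMSO library and 580 at 10 µM, and was at 10.5 and 9.98 CPM with DMSO, 29.7 CPM at 1 µM and 122 CPM at 10 µM. RPS21 was at 17.6 and 15.6 CPM with DMSO, 61.2 CPM at 1 µM and 147 CPM at 10 µM. Both rose in steps with dose, from the lowest disome CPM of all members. At 10 µM the log2 fold change was 3.58 ± 0.24 for RPS12 (edgeR adjusted p = 3.69e-49) and 3.16 ± 0.22 for RPS21 (edgeR adjusted p = 2.82e-45), which are 12.0-fold and 8.91-fold. At 10 µM both fell in RNA-seq, and their monosome footprints rose by 0.65 and 0.39.

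RPS6 was at 141 and 143 CPM with DMSO, 432 CPM at 1 µM and 1018 CPM at 10 µM in disome libraries. RPS16 was at 128 and 134 CPM with DMSO, 335 CPM at 1 µM and 903 CPM at 10 µM. RPS3A, a protein of the body near the messenger RNA exit, was at 186 and 179.9 CPM with DMSO, 502 CPM at 1 µM and 933 CPM at 10 µM. In each of the 3 the library at 1 µM was above both DMSO libraries and that at 10 µM above 1 µM. At 10 µM RPS6 rose by a log2 fold change of 2.84 ± 0.14, RPS16 by 2.78 ± 0.15 and RPS3A by 2.35 ± 0.14 (edgeR adjusted p = 2.51e-85, 1.01e-77 and 2.66e-60). FAU rose by 2.18 ± 0.16, and RPS7, a body protein, by 2.05 ± 0.15. Among the next in order were RPS15A (1.54 ± 0.12), the ubiquitin fusion RPS27A (1.53 ± 0.15) and the head protein RPS18 (1.47 ± 0.13). RPS27, RPS28, RPS19, RPS23, RPS14, RPS20, RPSA, RPS4X and RPS24 rose by 1.36 down to 0.31. RPS24 lost its call without either DMSO library (adjusted p = 0.147 without the first and 0.447 without the second), and RPS4X without the second (0.0609).

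**Figure D3:**
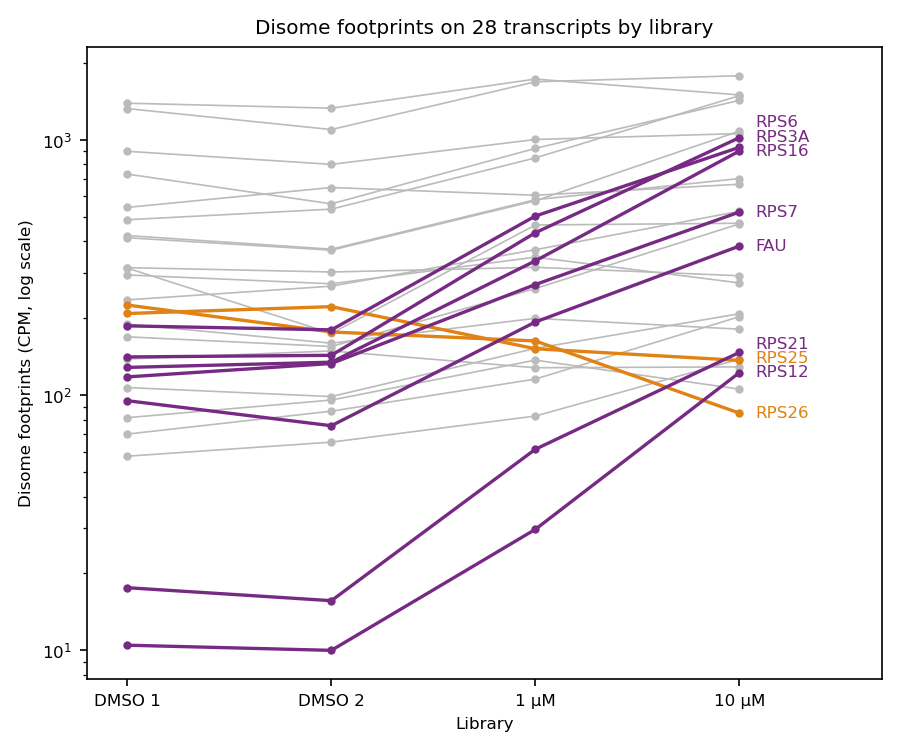
Disome footprints (CPM, log scale, vertical axis) of 28 members in the 4 disome libraries (horizontal axis); each line is 1 member. Purple marks the 7 members with the highest log2 fold change at 10 µM and orange RPS25 and RPS26, which were called lower, and RPS12 climbs from 10.5 and 9.98 CPM with DMSO to 122 CPM at 10 µM.

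Of RPS2, RPS3, RPS10 and RPS20, disome footprints at 10 µM were called higher on RPS20 alone, and these calls are not a test of the difference between the 4. RPS10, a head protein with the most disome footprints per codon of all members in DMSO, was at 1390 and 1329 CPM with DMSO, 1728 CPM at 1 µM and 1498 CPM at 10 µM. RPS20 was at 314 and 174 CPM with DMSO, 463 CPM at 1 µM and 471 CPM at 10 µM. RPS10 stood highest at 1 µM and RPS20 was above both DMSO libraries at both doses, though its DMSO libraries lay far apart. RPS10 rose at 1 µM (0.35 ± 0.11, edgeR adjusted p = 0.0369) and was not called at 10 µM (0.14 ± 0.11). The call at 1 µM was lost by DESeq2 (adjusted p = 0.535), with no filter on low counts (0.0589), in the joint fit with RNA-seq (0.0602) and there without the first (0.308) or second (0.435) DMSO disome library. RPS20 rose by 0.94 ± 0.15 at 1 µM and 0.96 ± 0.15 at 10 µM, but DESeq2 gave it an adjusted p of 0.686 at 1 µM and 0.413 at 10 µM. Without the second DMSO disome library its log2 fold change at 1 µM was 0.58 and the call was lost. RPS2 was at 138 and 149 CPM with DMSO, 128 CPM at 1 µM and 129 CPM at 10 µM. RPS3 was at 295 and 273 CPM with DMSO, 347 CPM at 1 µM and 275 CPM at 10 µM. Neither RPS2 (-0.16 ± 0.18) nor RPS3 (-0.05 ± 0.16) was called at 10 µM. RPS23 was at 236 and 267 CPM with DMSO, 371 CPM at 1 µM and 524 CPM at 10 µM in disome libraries and rose by 1.06 ± 0.15.

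RPS26 fell in disome as in monosome libraries. It was at 225 and 176 CPM with DMSO, 163 CPM at 1 µM and 84.9 CPM at 10 µM. RPS25, a head protein, was at 208 and 222 CPM with DMSO, 152 CPM at 1 µM and 137 CPM at 10 µM. At 10 µM both were below both DMSO libraries, as they were at 1 µM. The log2 fold changes at 10 µM were -1.23 ± 0.19 for RPS26 and -0.66 ± 0.18 for RPS25 (edgeR adjusted p = 7.39e-10 and 0.00103). RPS26 kept its call in each setting tried other than pooled doses. RPS25 lost it by DESeq2 (adjusted p = 0.0614).

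The uncalled members at 10 µM included RPS29, RPS13, RPS10, RPS9, RPS3, RPS15 and RPS2, with log2 fold changes from 0.24 to -0.16. RPS29 was at 81.5 and 95.5 CPM with DMSO, 137 CPM at 1 µM and 105 CPM at 10 µM. It was highest at 1 µM, where it was called (0.62 ± 0.19, edgeR adjusted p = 0.0185), though not by DESeq2 (0.350) or without the first (0.274) or second (0.0574) DMSO library. At 10 µM it stood above both DMSO libraries by less than the test resolved. RPS13, a body protein, was at 543 and 649.7 CPM with DMSO, 606 CPM at 1 µM and 669 CPM at 10 µM, and its value at 10 µM was just above the second DMSO library.

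Directly between doses, 16 members had more disome footprints at 10 µM than at 1 µM and 2 had fewer, RPS26 among them, where 12.1% of tested rows were called, 7.7% as higher and 4.36% as lower. RPS12 differed most (2.04 ± 0.26), followed by RPS16 (1.43 ± 0.17), RPS21 (1.26 ± 0.23) and RPS6 (1.24 ± 0.17). RPS20 (0.02 ± 0.17), RPS24 (0.08 ± 0.14) and RPS4X (0.08 ± 0.13) had close to equal values at both doses. Of the 24 members called at 10 µM against DMSO, 19 kept the call in every setting tried other than pooled doses, which left 7. The pooled fit called 3.28% of all tested rows. At 1 µM, DESeq2 called 8 members and the joint fit with RNA-seq 20. In that joint fit, without the second DMSO library 10 members were called, and without the first 15. FAU, RPS3A, RPS6, RPS7, RPS12, RPS15A, RPS16 and RPS21 kept the call at 1 µM in every setting tried.

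Set against RNA-seq, monosome footprints rose on 26 members at 10 µM and fell on 1, RPS26, where 9.52% of the 47468 tested rows were called, 5.74% as higher and 3.79% as lower. The members' median log2 change of the ratio was 0.78, against 0.06 over all tested rows and 0.18 over rows of the members' length range, of which 7.23% were called higher and 2.25% lower. Among rows of a mean of at least 10 CPM, fitted alone, 10.9% were called higher and 8.44% lower, and 26 members higher and none lower. The highest changes were those of RPS29 (1.83 ± 0.18), RPS28 (1.50 ± 0.17), RPS12 (1.37 ± 0.15) and RPS13 (1.29 ± 0.16). Per counted codon, monosome CPM over RNA-seq CPM on RPS28 was 2.30 and 2.14 in the DMSO pair, 3.31 at 1 µM and 6.24 at 10 µM. On RPS29 it was 1.97 and 1.56 in the DMSO pair, 2.59 at 1 µM and 6.12 at 10 µM. Both ratios were highest at 10 µM, where the RNA-seq levels were lowest. The lowest changes included those of RPS26 (-0.65 ± 0.20), RPS15 (0.25 ± 0.13) and RPS3 (0.28 ± 0.14), of which RPS26 alone was called. On RPS26 the ratio was 0.163 and 0.111 in the DMSO pair, 0.130 at 1 µM and 0.0848 at 10 µM, and on RPS12 it was 0.305 and 0.283 in the DMSO pair, 0.360 at 1 µM and 0.751 at 10 µM. At 10 µM RPS26 stood below and RPS12 above both DMSO libraries. Without the second DMSO monosome library 16 members were called, and without the first 18. RPS26 lost its call by DESeq2 (adjusted p = 0.0800) and without either of these libraries (0.357 without the first and 0.0841 without the second).

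At 1 µM no member was called in the ratio of monosome to RNA-seq values, where 0.00211% of tested rows were called. Before adjustment 21 members had a p under 0.05 by edgeR, as did 1878 of the 47468 tested rows. DESeq2 called 1 member and 0.364% of rows. The fitted log2 change was above 0 in 31 of 32 members, with a median of 0.38. The median was 0.0004 over all tested rows and 0.04 over rows of the members' length range. RPS20 (0.72 ± 0.17), RPS27 (0.72 ± 0.16) and RPS6 (0.65 ± 0.14) had the highest values and RPS26 (-0.06 ± 0.21) the lowest. On RPS20 the ratio was 0.661 and 0.496 in the DMSO pair, 0.949 at 1 µM and 1.29 at 10 µM. On RPS27 it was 0.347 and 0.330 in the DMSO pair, 0.560 at 1 µM and 0.803 at 10 µM. In both it stood above both DMSO libraries at each dose. Without the first DMSO RNA-seq library the members' median log2 change at 1 µM was 0.43, and without the second 0.32. In both fits more members and a larger share of all tested rows were called.

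Disome footprints relative to RNA-seq rose on 23 members at 10 µM and fell on 1, RPS26, where 20.1% of 55625 tested rows were called, 12.9% as higher and 7.2% as lower. The median log2 change was 1.48 over the members, 0.01 over all tested rows and 0.34 over rows of the members' length range, of which 17.6% were called higher and 3.57% lower. Among rows of a mean of at least 10 CPM, fitted alone, 24.7% were called higher and 19.3% lower, and 23 members higher and 1 lower. RPS12 led with 4.33 ± 0.29, then RPS21 (3.97 ± 0.29), RPS6 (3.35 ± 0.22) and RPS3A (2.88 ± 0.22). Per counted codon the ratio on RPS12 was 0.0295 and 0.0267 in the DMSO pair, 0.0798 at 1 µM and 0.545 at 10 µM. On RPS6 it was 0.163 and 0.153 in the DMSO pair, 0.564 at 1 µM and 1.55 at 10 µM. RPS12 and RPS6 climbed at each dose from values under 0.2. RPS13, RPS29 and RPS10, uncalled in disome footprints alone, were called here as higher (0.90, 1.45 and 0.74), and their RNA-seq levels were among the 8 that fell. RPS10 lost this call by DESeq2 (adjusted p = 0.0558). At 1 µM 16 members rose and none fell, where 1.83% of tested rows were called, 1.71% as higher and 0.122% as lower. RPS21 (2.12 ± 0.29), RPS6 (1.91 ± 0.22), RPS12 (1.58 ± 0.31) and RPS3A (1.57 ± 0.22) again had the highest values, and RPS25 (-0.33 ± 0.24, not called) the lowest. On RPS25 the ratio was 0.897 and 0.799 in the DMSO pair, 0.641 at 1 µM and 0.778 at 10 µM. On RPS26 it was 1.33 and 0.884 in the DMSO pair, 0.932 at 1 µM and 0.494 at 10 µM. RPS25 was below both DMSO libraries at both doses, and RPS26 at 10 µM. Without the first DMSO disome library 10 were called and without the second 8.

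Disome relative to monosome footprints were higher at 10 µM on 17 members and lower on 3 (RPS2, RPS13 and RPS25), where 18.6% of 41677 tested rows were called, 12.8% as higher and 5.82% as lower. The split depended on scaling and filter. With the scaling factors computed without the members, 16 were higher and 6 lower, while the median of all tested rows moved from 0.03 to -0.10. With the members kept, the split was 16 and 5 without a low-count filter and 16 and 4 with DESeq2 size factors (medians -0.10 and -0.07). Among rows of a mean of at least 10 CPM, 16 members were higher and 6 lower, against 22.2% and 19.0% of rows (median -0.07). The members' median log2 change was 0.58, or 0.45 with the factors computed without them. Over rows of the members' length range it was 0.24 with the usual factors, and 16.9% were called higher and 3.82% lower. RPS12 (2.98 ± 0.21), RPS21 (2.82 ± 0.19), RPS16 (2.40 ± 0.14) and FAU (2.25 ± 0.16) had the highest changes. RPS25 (-0.76 ± 0.15) and RPS2 (-0.60 ± 0.16) had the lowest, with RPS26 (-0.41 ± 0.19, not called) and RPS13 (-0.37 ± 0.14, edgeR adjusted p = 0.04997, and 0.0554 with the replicate block). RPS2 lost its call without the first DMSO monosome library (log2 change -0.62). RPS13 also lost its call by DESeq2 (adjusted p = 0.19) and without the first (log2 change -0.49) or second (-0.43) DMSO monosome library. At 1 µM 9 were higher and 1 lower (RPS25), where 3.55% of tested rows were called, 3.2% as higher and 0.355% as lower. RPS21 (1.58 ± 0.21) and RPS3A (1.35 ± 0.14) had the highest changes. Without the first DMSO disome library 12 were higher and 4 lower at 1 µM. Without either DMSO monosome library 7 were higher and none lower.

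In DMSO, disome CPM over monosome CPM per counted codon differed widely between members. On RPS21 the ratio was 0.0710 and 0.0713 in the DMSO pair, 0.200 at 1 µM and 0.481 at 10 µM. On RPS12 it was 0.0965 and 0.0946 in the DMSO pair, 0.222 at 1 µM and 0.726 at 10 µM. On RPS16 it was 0.175 and 0.176 in the DMSO pair, 0.392 at 1 µM and 0.895 at 10 µM. These 3 were the lowest of all members with DMSO, and each was higher at both doses. RPS25 was at 0.800 and 0.861 in the DMSO pair, 0.508 at 1 µM and 0.476 at 10 µM, and RPS2 at 0.581 and 0.576 in the DMSO pair, 0.440 at 1 µM and 0.369 at 10 µM. On both the ratio was below both DMSO libraries at each dose. RPSA was at 3.32 and 2.87 in the DMSO pair, 3.57 at 1 µM and 3.42 at 10 µM. RPS10 was at 3.03 and 2.94 in the DMSO pair, 3.20 at 1 µM and 2.81 at 10 µM. On RPSA and RPS10, which were near the top, the ratio at 10 µM was close to or within the range of the other libraries. RPS26 was at 8.14 and 7.99 in the DMSO pair, 7.19 at 1 µM and 5.82 at 10 µM, the highest of all, and rests on its few monosome footprints and on a match between tables that was not unique.

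The spread of this ratio among the members was narrower with girolline than with DMSO. The highest ratio was 115 and 112 times the lowest in the DMSO libraries, 16.2 times at 10 µM, and without RPS26 46.8, 41.2 and 9.5 times. The SD of the log2 ratio over the members was 1.41 and 1.37 in the DMSO pair, 1.18 at 1 µM and 1.04 at 10 µM. Leaving out RPS26, the SD was 1.25 and 1.20 in the DMSO pair, 1.03 at 1 µM and 0.94 at 10 µM. With the level taken from the first DMSO library and the change at 10 µM from the second, the Spearman rho across the 32 members was -0.56, and with the libraries exchanged -0.65. Both are descriptions, since the members share libraries and depth and the disome level of the lowest rests on few counts.

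**Figure D4:**
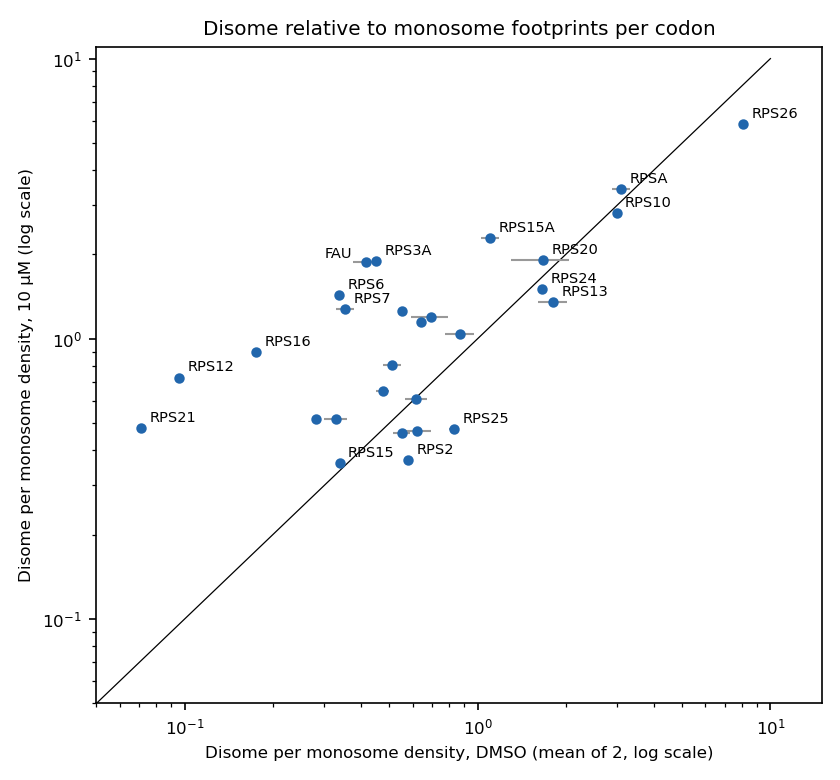
Disome CPM over monosome CPM per counted codon of 28 members at 10 µM (vertical axis, log scale) against the mean of the 2 DMSO libraries (horizontal axis, log scale; grey bars join the DMSO values, and the line marks equality). RPS21, RPS12 and RPS16, lowest with DMSO, lie far above the line, and RPSA and RPS10 lie near it.

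Across the 3 kinds at 10 µM, the most common pattern among the members was a rise of monosome and disome footprints with no call in RNA-seq, in 15 members. At this dose the RNA-seq test called 1.11% of its tested rows, so lacking such a call was the usual state of a row. The tests of footprints called far more, 32.3% of rows for monosomes and 35.7% for disomes. How often each joint pattern occurs outside the members was not counted, so these counts have no background. In 5 members (RPS12, RPS18, RPS21, RPS27A and RPS28) footprints of both kinds rose while RNA-seq fell. RPS10, RPS13 and RPS29 fell in RNA-seq and rose in monosome footprints with no disome call. RPS2 and RPS3 rose in monosome footprints alone, FAU rose in disome footprints alone, and RPS15 fell in monosome footprints alone. RPS25 rose in monosome and fell in disome footprints, RPS26 fell in both, and RPS9 was not called in any kind. A call in one kind and not in another is not a test of their difference.

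Members with and without the pyrimidine tract at an annotated start were both found among those that rose. These sets rest on the annotated start alone, and RPS15, RPS26 and RPS28 have a run of C and T shortly after theirs. In disome libraries at 10 µM, 14 of the 19 with the tract rose and 1 fell, with a median log2 fold change of 1.14. Of the 6 without it, 3 rose and 1 fell, with a median of 0.40. In monosome libraries 17 of the 19 rose and none fell, and 4 of the 6 rose and 2 fell. RPS7, RPS28 and RPS4X rose in disome footprints without a tract at their annotated start, and RPS3, RPS9, RPS10 and RPS13 had a tract and no call. The difference between these sets was not tested, and coding length had a Spearman rho of -0.09 with the disome change over the 32 members.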

How the data were processed

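The authors deposited 1 table per library holding a transcript ID, a length and a raw read count that was not normalized. Per the submitters' processing notes the build was hg38 and the tools STAR 2.7.0a and CASAVA 1.8, with no roles stated. The counter, annotation and handling of strand and of reads with several matches are not given in the sources used here. Coding length was taken as the disome length value, the monosome value plus 10 or the RNA-seq value plus 20, with codons inferred as the unit. Rows with identical counts in all libraries of a fit were merged.

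Counts were tested on the whole table with edgeR 4.0.16 (TMM, filterByExpr, quasi-likelihood test, Benjamini-Hochberg, FDR 0.05) in R 4.3.3, with 3 groups over the 4 libraries of a kind. For ratios of kinds, the 8 libraries of both kinds were fitted in 6 groups and the dose effect of one kind was tested against that of the other, which left 2 residual degrees of freedom. For ratios with monosome values, rows were paired by the longest common subsequence of coding lengths, which gave 76301 rows, plus the 8 nearby matches. All 3 comparisons of a kind share its libraries, and both doses share the DMSO pair. The code was tested on simulated data.

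Alternatives were DESeq2 1.42.0 and its size factors, TMM without the members, other filters, 1 row per block of 10 rows, both doses pooled, each DMSO library left out, and a replicate block. The 32 members and the groups by place in the subunit were chosen with earlier results of these data known. All members were counted, and values in every library were given for the 4 highest and 4 lowest log2 fold changes of each kind and for RPS2, RPS3, RPS6, RPS10, RPS20, RPS23 and RPS26, with the fitted change and some library values for ratios and with others chosen after their values were seen. In each DMSO pair the counts differed by more than sampling noise (chi-square per degree of freedom 9.17 for RNA-seq, 2.46 for monosomes and 4.14 for disomes). Some members are counted but not reported here by name, and the figures leave them out. A planned list of other genes with the tract was not analysed here.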

Additional observations from a re-analysis of the deposited data

How the results depend on the processing

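No member call changed direction in any setting. Of the 2274 repeats of a member's call under another setting, 1920 passed and 354 no longer passed the FDR of 0.05. Members called moved by over 1.5 times as follows, and the cause was not tested. For RNA-seq at 10 µM (8), 14 were called with rows of at least 10 CPM, 14 with 1 row per block of 10 rows and 0 with both doses pooled. For RNA-seq between doses (2) these were 5 and 4, and DESeq2 called 1. Pooling both doses left 0 of 28 in monosome and 7 of 24 in disome libraries at 10 µM. DESeq2 called 4 of 15 in monosome libraries between doses, 8 of 21 in disome libraries at 1 µM, 11 of 18 between doses, 7 of 16 for disome relative to RNA-seq at 1 µM, and 1 against 0 for monosome relative to RNA-seq at 1 µM. The joint fit with RNA-seq, added after seeing the data, called 0 of 25 in monosome libraries at 1 µM, and 0.0232% of all tested rows.

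For a single kind, leaving out 1 DMSO library used a joint fit (RNA-seq with disome libraries, the others with RNA-seq), which with no library left out called 9 members for RNA-seq, 21 for monosomes and 23 for disomes at 10 µM, and 20 for disomes at 1 µM. Leaving out 1 gave 8 to 12 calls in RNA-seq at 10 µM, 8 to 9 in monosome libraries at 10 µM, 0 to 0 at 1 µM, 21 to 23 in disome libraries at 10 µM and 10 to 15 at 1 µM. For ratios it gave 24 to 24 for disome relative to RNA-seq at 10 µM and 8 to 16 at 1 µM. For monosome relative to RNA-seq it gave 16 to 31 and 0 to 24, and for disome relative to monosome 16 to 24 and 7 to 16. In most of these fits the share called over all tested rows moved too, so the counts do not describe the members alone. No such fit was made for the comparison of the doses, where DMSO libraries serve only for the spread.

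DMSO libraries share a number between kinds, but the labels do not say that a number marks a shared culture. Deviations of same-numbered DMSO libraries correlated at 0.28 (disome and RNA-seq), -0.12 (monosome and RNA-seq) and 0.07 (disome and monosome). With the number as a replicate block, 25 and 23 members were called for disome relative to RNA-seq at 10 and 1 µM, 24 and 0 for monosome relative to RNA-seq, and 19 and 11 for disome relative to monosome. With the monosome numbers crossed, an alternative added after seeing the data, monosome relative to RNA-seq gave 28 and 3 calls. With only the 24 members paired by alignment, 7 were called in RNA-seq and 19 in disome libraries at 10 µM.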
